A study of Homo sapiens with 6 samples.

Results

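The general transcription factors and the TAF subunits (TBP-associated factors) were examined in bulk RNA-seq libraries of H9 cells. The members were all genes of the deposited count table whose names begin with TAF and a digit, GTF2 or GTF3, together with TBP, TBPL1, BRF1, BRF2 and BDP1, after rows with a name of pseudogene or antisense form were left out. They were 68 of 61541 genes, and 37 further rows with matching names were left out by this form of their names. The annotation gives 67 members as protein coding and 1, GTF2H2B, as a transcribed pseudogene, which the name rule kept. H9 is a cutaneous T-cell lymphoma line and a clonal derivative of another such line, labelled wild type. The 3 control libraries came from cells given the vehicle DMSO, and the other 3 from cells given AZD4573, a selective inhibitor of the kinase CDK9, at 50 nM for 4 h by the labels and figure legends (the discussion of the study gives a longer exposure). No time is labelled for the vehicle, and nothing in the sources used here says whether the 3 libraries of a group came from separate cultures, so that p-values measure the spread between these libraries only.

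General transcription factors assemble at a promoter and place an RNA polymerase at the start site. At RNA polymerase II (RNAP2) promoters, TFIID, made of TBP and its TAF subunits, recognises the core promoter, TFIIA and TFIIB stabilise it and bridge it to the polymerase, TFIIF and TFIIE follow, and TFIIH opens the DNA. TBP is also part of SL1, which serves RNA polymerase I at the ribosomal RNA genes, and of TFIIIB, which serves RNA polymerase III at tRNA and other small RNA genes. CDK9 acts after these steps, on RNAP2 that has begun to transcribe and has paused near the start site, and the genes of these factors are themselves transcribed by RNAP2.

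The promoters of 3 members are shown because these genes had the largest falls (TAF5, TAF1A) and the only rise of at least 1.5-fold (TAF10). Each line gives the 250 bases upstream of the start site in RefSeq, on GRCh38.p14 and read 5′ to 3′ on the strand of the gene. Capitals mark the letters of the motifs searched, which are the letters CCAAT and, for the GC box, the letters GGGCGG, each in either orientation. The windows are chr10:103367726-103367975 on the plus strand for TAF5, chr1:222589934-222590183 on the minus strand for TAF1A and chr11:6612217-6612466 on the minus strand for TAF10. GENCODE, which annotates transcripts that the RefSeq start does not include, extends TAF10 beyond its window.
TAF5: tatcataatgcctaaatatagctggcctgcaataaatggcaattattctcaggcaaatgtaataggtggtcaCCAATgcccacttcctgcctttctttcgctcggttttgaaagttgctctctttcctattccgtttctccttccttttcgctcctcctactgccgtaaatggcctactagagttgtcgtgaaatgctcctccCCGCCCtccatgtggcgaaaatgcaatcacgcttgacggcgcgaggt
TAF1A: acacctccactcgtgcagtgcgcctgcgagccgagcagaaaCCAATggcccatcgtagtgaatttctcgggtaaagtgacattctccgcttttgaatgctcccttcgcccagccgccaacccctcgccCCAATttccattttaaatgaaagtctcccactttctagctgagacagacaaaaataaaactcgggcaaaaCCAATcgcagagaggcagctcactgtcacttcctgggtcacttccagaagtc
TAF10: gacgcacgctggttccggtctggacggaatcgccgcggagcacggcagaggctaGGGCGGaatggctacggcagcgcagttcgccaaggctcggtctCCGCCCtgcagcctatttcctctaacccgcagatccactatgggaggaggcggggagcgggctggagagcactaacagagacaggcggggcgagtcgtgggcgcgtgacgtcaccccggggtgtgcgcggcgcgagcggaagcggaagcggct

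The TAF5 window held a CCAAT box at -178 and a GC box at -47, where positions count from the start site. The TAF1A window held 3 CCAAT boxes, at -209, -122 and -52, and the TAF10 window held 2 GC boxes, at -196 and -153. Promoters were found for 44 of the 53 members that passed the filter on low counts, and both strands were searched. The ETS letters CCGGAAG stood in 14 of the 44 (31.8%), beside 8.82% of all 27305 promoters and 15.5% of the 11422 promoters of genes tested. The E-box letters CACGTG stood in 10 of the 44 (22.7%), beside 6.49% of all promoters and 8.76% of those tested. For the GC box GGGCGG the shares were 52.3%, 42.3% and 65.1%, for CCAAT 36.4%, 33.0% and 34.9%, for the TATA box TATAAA 4.55%, 11.1% and 5.73%, and for the NRF1 palindrome 4.55%, 1.13% and 1.93%, in the same order. Among the 19 members with a promoter entry that were lower by at least 1.5-fold, 5 held the ETS letters, 6 the E-box, 9 the GC box, 8 CCAAT, 1 TATAAA and 0 the NRF1 palindrome. Such a match is a stretch of letters and not a binding site.

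Most members with enough counts were lower upon AZD4573 treatment. Counts were expressed as normalised CPM (a gene's counts relative to the library total, scaled by edgeR's TMM method), and 53 of the 68 members passed the filter on low counts. In edgeR's quasi-likelihood test, with p-values adjusted by the Benjamini-Hochberg method across 17678 tested genes, 22 members were lower and 1 was higher by 1.5-fold or more at an adjusted p under 0.05. Without GTF2H2B, 21 of 52 were lower. Of the tested genes as a whole, 23.7% were called lower and 22.7% higher by the same rule, so that the members' shares were 41.5% and 1.89%. At an adjusted p under 0.05 and any fold, 36 members were lower and 10 higher, beside 37.4% and 37.3% of all genes, and 7 members did not pass the test. The 3 AZD4573 libraries lay below the 3 DMSO libraries for 36 members and above them for 10, and the groups overlapped for 7. Over all genes, 38.7% were separated downwards and 39.0% upwards. The median log2 fold change was -0.53 over the 53 members and 0.03 over all genes tested, and 42 of the 53 lay below the latter. Only 2 members, TAF5 and TAF1A, fell by more than 2 on the log2 scale, as did 2.90% of all genes tested. A further 12 members had values between -2 and -1. In the range from -2 to -1.75 lay 1.47% of all genes tested and 1.89% of the members. From -1.75 to -1.5 these shares were 2.08% and 5.66%. They were 3.20% and 1.89% from -1.5 to -1.25, and 4.51% and 13.2% from -1.25 to -1.

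**Figure D1:**
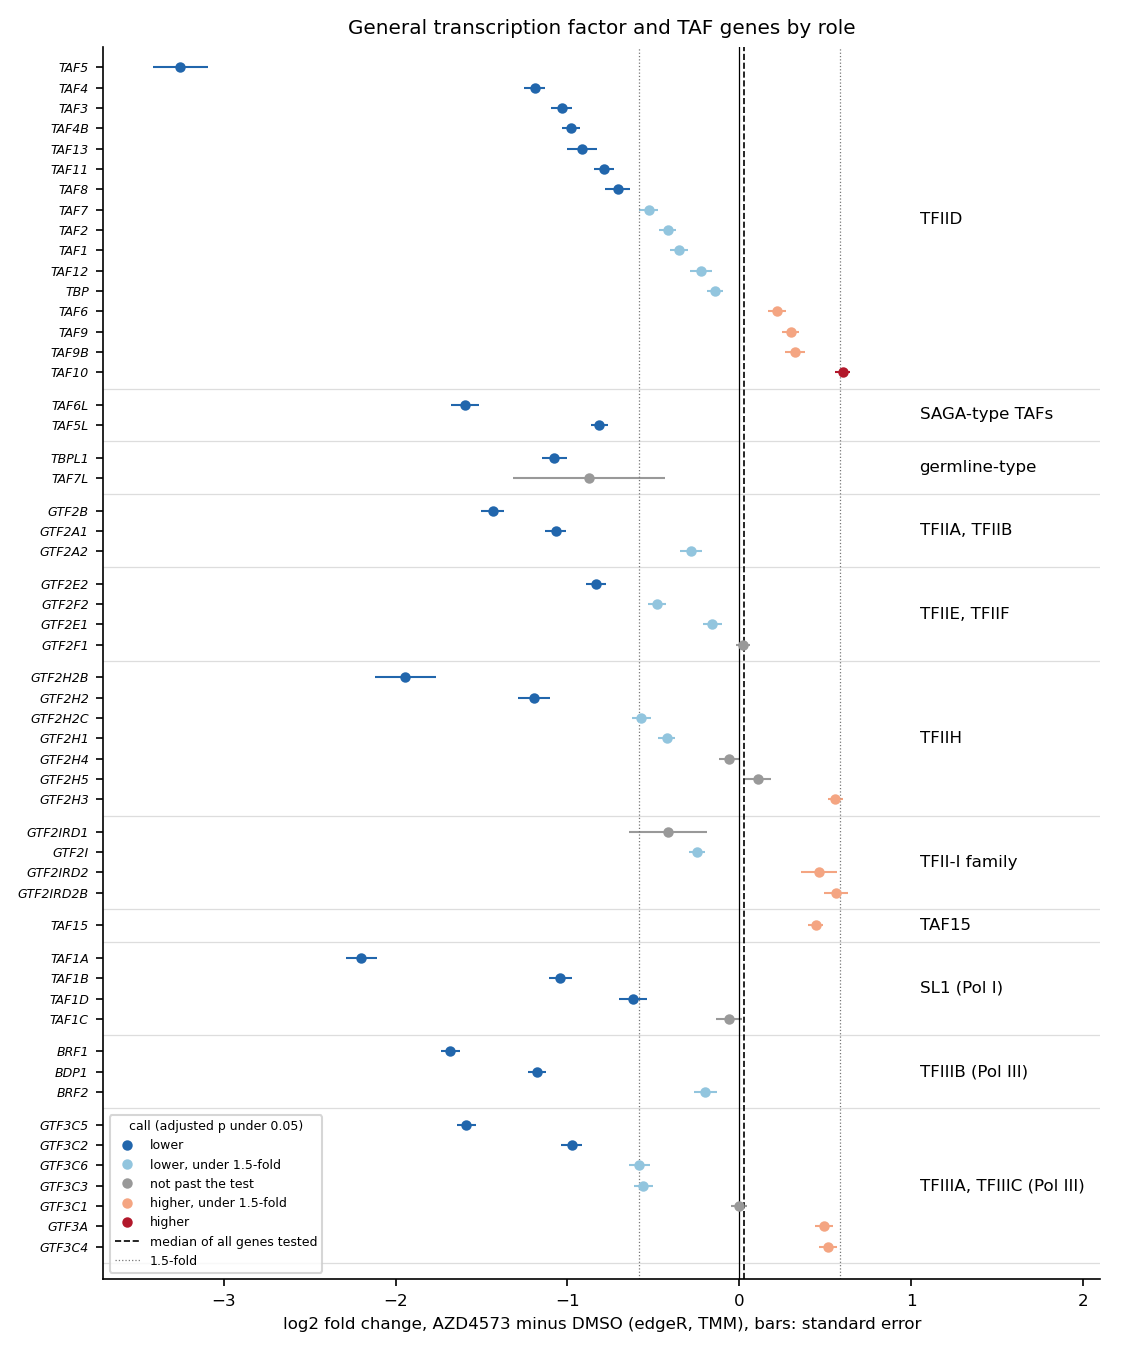
Log2 fold change (AZD4573 minus DMSO) of the 53 tested members, grouped by role, with bars for a standard error derived from the F statistic of edgeR's test. A dashed line stands at the median of all genes tested (0.03) and dotted lines at 1.5-fold. TAF5 stands furthest to the left at -3.25, and TAF10 is the only point past the right dotted line that passed the test, at 0.60.

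The direction of the smaller changes depended on the scaling. Transcripts of the 13 protein genes on mitochondrial DNA, which have a polymerase of their own, took 3.04% to 3.22% of the counts in the DMSO libraries and 4.67% to 4.98% in the AZD4573 libraries. When libraries were scaled to these transcripts, the median of all genes moved to -0.71 and that of the 53 members to -1.27, and with library size as the only scaling the medians were -0.08 and -0.63. With mitochondrial scaling all 53 members had negative log2 fold changes, 43 were lower and 0 higher by at least 1.5-fold (all genes, 53.4% and 10.0%), and 52 passed the test at any fold (all genes, 67.2% lower). The 10 members that were higher by TMM thus had values below 0 by mitochondrial scaling, from -0.52 for TAF6 to -0.14 for TAF10, all of them above the median of all genes under that scaling. In bulk RNA, fewer cells of a type and less RNA per cell cannot be told apart.

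**Figure D2:**
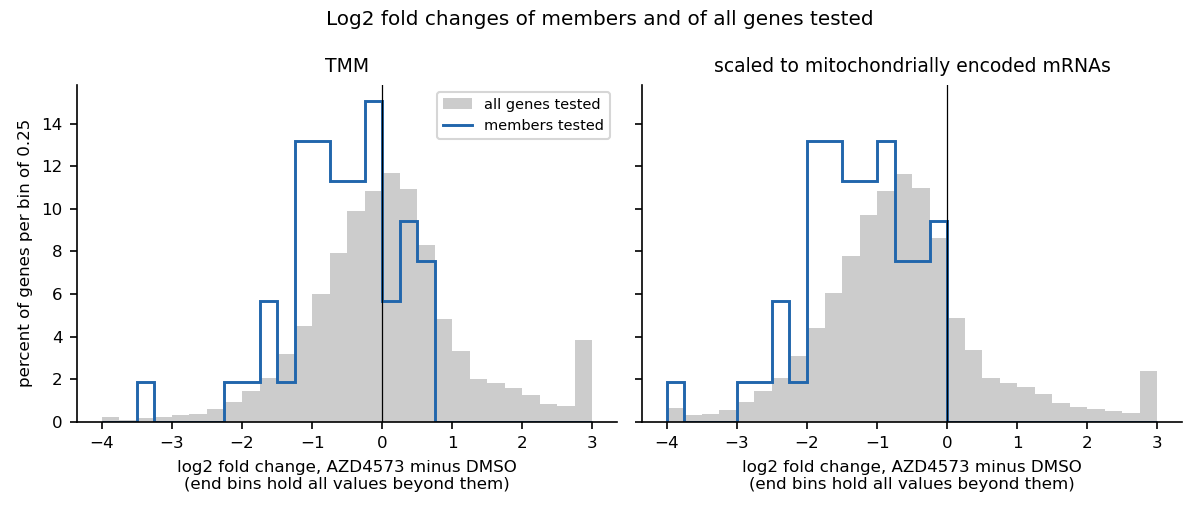
Distribution of the log2 fold changes of all genes tested (grey) and of the 53 tested members (blue line), in percent of genes per bin of 0.25, with TMM (left) and with scaling to mitochondrially encoded mRNAs (right). The members' median lies at -0.53 on the left, where that of all genes is 0.03, and at -1.27 on the right, where that of all genes is -0.71.

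Total counts ranged from 70367303 to 76571157 in the DMSO libraries and from 52101868 to 63795185 in the AZD4573 libraries, where a count of 0 allows 0.0382 to 0.0589 CPM in a library (3 counts of its total, counting error only). The members together took 0.402% to 0.417% of the counts with DMSO and 0.349% to 0.358% with AZD4573. Of 12 T-cell markers 9 had at least 10 CPM in all 6 libraries, whereas CD2 and CD7 were below 1 CPM and CD4 was between 3.61 and 7.35 CPM. The summed T-cell markers ranged from 1445 to 1506 CPM with DMSO and from 2085 to 2178 CPM with AZD4573. Of the B-cell markers, CD79A ranged from 55.0 to 60.9 CPM with DMSO and from 88.4 to 98.4 CPM with AZD4573, CD79B lay between 3.26 and 5.72 CPM, and MS4A1 and PAX5 were below 0.5 CPM. The 4 myeloid markers stayed below 0.5 CPM in sum, and EPCAM made up most of the epithelial and fibroblast sum (156 to 172 CPM with DMSO, 136 to 141 CPM with AZD4573). The part of these markers in the members' changes was not tested.

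The 16 tested members of TFIID moved in both directions. By at least 1.5-fold, 7 were lower and 1 was higher, and at any fold 12 were lower and 4 higher, with a median log2 fold change of -0.47. Over all genes tested, 23.7% were lower and 22.7% higher by at least 1.5-fold, and 37.4% and 37.3% at any fold. The counts of the other role groups below, which are small, stand beside the same shares. TAF5, whose WD40 repeats form part of the TFIID scaffold, had 19.2, 20.4 and 20.0 CPM in the DMSO libraries and 2.89, 2.05 and 1.39 CPM in the AZD4573 libraries. Every AZD4573 library was far below every DMSO library, and the mean with AZD4573 was 10.6% of that with DMSO (log2 fold change -3.25, SE 0.16, edgeR adjusted p = 8.3e-10). TAF5 lies on chromosome 10 (103367966 to 103389065, plus strand, GRCh38), and 25 of its 7029 exon bases overlap ATP5MK on the other strand. The fall of TAF5 was -3.99 with mitochondrial scaling.

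The other TFIID members lower by at least 1.5-fold were TAF4 (log2 fold change -1.19), a core scaffold subunit, its paralog TAF4B (-0.98), TAF3 (-1.03), which reads a histone mark of active promoters, TAF13 (-0.91) and TAF11 (-0.78), which pair through histone folds, and TAF8 (-0.71), a histone-fold partner of TAF10. TAF7 (-0.53), TAF2 (-0.42), which contacts the initiator element, TAF1 (-0.35), the largest subunit, and TAF12 (-0.22) were lower by less. In all of these the groups did not overlap.

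TBP, the subunit shared by the machineries of all 3 RNA polymerases, changed little. It had 66.4, 68.6 and 66.9 CPM with DMSO and 59.2, 61.7 and 62.0 CPM with AZD4573. The groups did not overlap, and the log2 fold change was -0.14 (SE 0.05, edgeR adjusted p = 0.012), or 90.6% of the DMSO mean. Without DMSO replicate 2 the fall of TBP did not pass the test (-0.13, edgeR adjusted p = 0.061). With mitochondrial scaling it was -0.88.

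TAF10, a histone-fold subunit that TFIID shares with the coactivator complex SAGA, had 104, 104 and 103 CPM with DMSO and 152, 155 and 165 CPM with AZD4573. All 3 AZD4573 libraries were higher, with a log2 fold change of 0.60 by TMM (SE 0.04, edgeR adjusted p = 3.4e-08) but of -0.14 by mitochondrial scaling. The count of TAF10 is also uncertain: 3122 of its 5819 exon bases lie in other genes, among them ILK on the other strand, and the counting ignored strand. The share of reads from those genes was not tested. TAF6 (0.22), TAF9 (0.30), its histone-fold partner, and TAF9B (0.33), a paralog of TAF9, were higher by less than 1.5-fold by TMM and lower by mitochondrial scaling (-0.52, -0.44 and -0.42). With library size as the only scaling TAF6 did not pass the test (0.11, edgeR adjusted p = 0.079). In other genes lie 1870 of the 7195 exon bases of TAF6 and 678 of the 7566 of TAF9. TAF9 and TAF9B also have pseudogenes, so the counts of these members are uncertain too. Together the 16 TFIID members took 911 ± 15.1 CPM with DMSO and 773 ± 3.67 CPM with AZD4573 (SD, n = 3), or 84.9% of the DMSO sum.

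Within TFIID the order of levels was set per kb of exon, from all annotated exons of a gene. This length is not that of the transcripts present, so the order and the fold range below depend on the annotation. Without the division, TAF10 (104 CPM with DMSO, 5819 exon bases) lay above TBP (67.3 CPM, 2318 exon bases). With DMSO, TBP was highest at 29.0 ± 0.490 CPM per kb, followed by TAF7 (20.9 ± 1.33), TAF10 (17.8 ± 0.136) and TAF4B (14.9 ± 0.318), and TAF4B and TAF6 (13.97 ± 0.838) overlapped. The lowest were TAF5 (2.82 ± 0.0876), TAF12 (2.32 ± 0.101) and TAF8 (1.69 ± 0.107). With AZD4573, TAF10 (27.0 ± 1.24) and TBP (26.3 ± 0.667) overlapped at the top, TAF6 (16.3 ± 0.804) followed, and TAF5 was last at 0.300 ± 0.107 CPM per kb (SD, n = 3). The highest level was 17.2 times the lowest with DMSO and 90.1 times with AZD4573. Of the 15 neighbours in the order, 4 overlapped with DMSO and 6 with AZD4573.

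**Figure D3:**
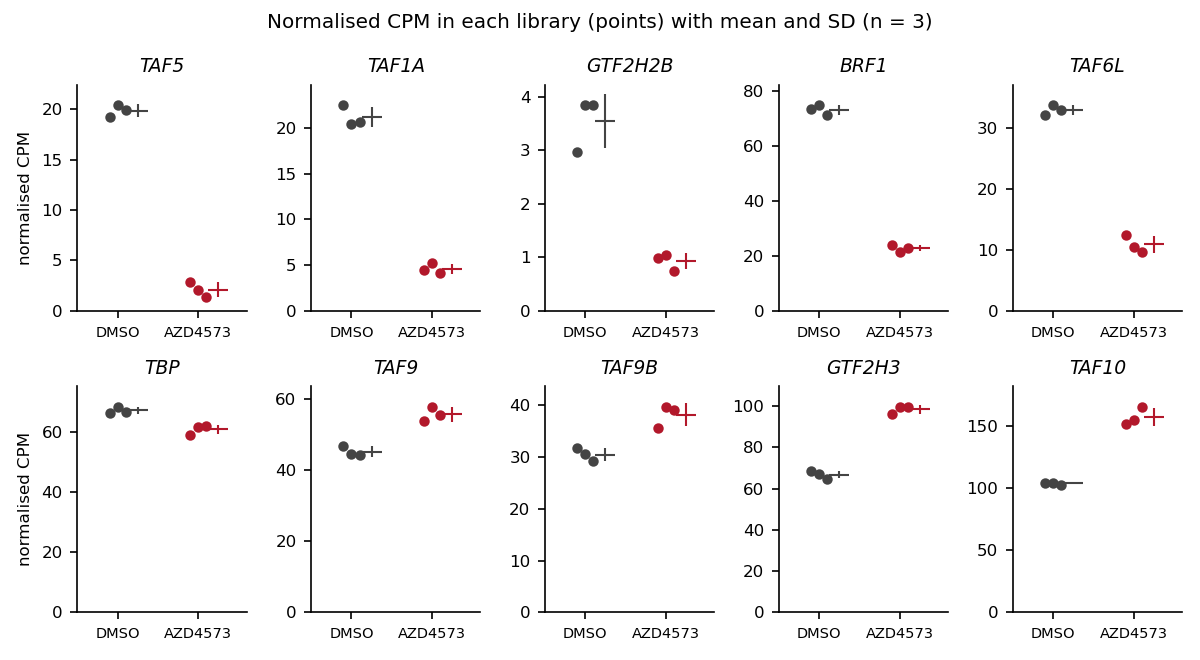
Normalised CPM (TMM) of 10 members in each of the 3 DMSO and 3 AZD4573 libraries, with the mean and SD beside the points and every axis starting at 0. The upper row shows the 5 largest falls, led by TAF5 from 19.9 to 2.11 CPM, and the lower row shows TBP, which changed little, and 4 members that were higher by TMM, all 4 of them lower by mitochondrial scaling.

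TFIIA and TFIIB, which join TFIID at the promoter, were lower in all 3 tested genes, 2 of them by at least 1.5-fold. GTF2B, which encodes TFIIB, had 43.0, 42.7 and 40.1 CPM with DMSO and 16.9, 14.9 and 14.8 CPM with AZD4573. The AZD4573 libraries all lay below the DMSO libraries, at 37.0% of the DMSO mean (log2 fold change -1.44, SE 0.07, edgeR adjusted p = 4.2e-10). No other annotated exon overlaps GTF2B. Of the TFIIA subunits, GTF2A1 had a log2 fold change of -1.07 and GTF2A2 of -0.28, and the difference between them was not tested.

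TFIIE and TFIIF each consist of 2 different subunits, and 1 of the 4 genes was lower by at least 1.5-fold. GTF2E2, the small TFIIE subunit, had 51.98, 47.2 and 47.6 CPM with DMSO and 28.7, 26.5 and 27.2 CPM with AZD4573, with every AZD4573 library lower (log2 fold change -0.83, SE 0.06, edgeR adjusted p = 2.0e-08). GTF2F2 (-0.48) and GTF2E1 (-0.16) were lower by less than 1.5-fold, and GTF2F1 did not pass the test (0.02). GTF2E1 did not pass it without DMSO replicate 1 (-0.13, edgeR adjusted p = 0.061), without AZD4573 replicate 1 (-0.12, edgeR adjusted p = 0.056) or with at least 10 counts required in every library (-0.12, edgeR adjusted p = 0.064).

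The 7 tested TFIIH rows with a GTF2H name spread widely, with 2 lower by at least 1.5-fold, 2 lower and 1 higher by less, and 2 not past the test. GTF2H2B, annotated as a transcribed pseudogene and a copy of the TFIIH subunit gene GTF2H2, had 2.96, 3.84 and 3.84 CPM with DMSO and 0.982, 1.03 and 0.753 CPM with AZD4573. The groups did not overlap (log2 fold change -1.94, SE 0.18, edgeR adjusted p = 3.5e-07), but 1392 of its 1432 exon bases lie in another gene of the same strand, and near-identical copies can split its reads. The other copies, GTF2H2 (-1.19) and GTF2H2C (-0.57), were also lower, as was GTF2H1 (-0.42). GTF2H3 had 68.3, 67.0 and 64.8 CPM with DMSO and 95.9, 99.4 and 99.8 CPM with AZD4573, higher in each library by TMM (0.56, under 1.5-fold) and lower by mitochondrial scaling (-0.18). GTF2H4 (-0.06) and GTF2H5 (0.11) did not pass the test, although GTF2H5 passed it without DMSO replicate 1 (0.19, edgeR adjusted p = 0.022) and GTF2H4 with library size as the only scaling (-0.16, edgeR adjusted p = 0.033). The count of GTF2H4 is uncertain, since 1858 of its 2330 exon bases lie in another gene of the same strand. The sum over the 7 rows was 245 ± 4.21 CPM with DMSO and 241 ± 0.278 CPM with AZD4573 (SD, n = 3).

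The TAF paralogs that are found in SAGA and not in TFIID were both lower. TAF6L had 32.1, 33.8 and 33.0 CPM with DMSO and 12.5, 10.5 and 9.73 CPM with AZD4573. The groups were well apart, and AZD4573 libraries were at 33.1% of the DMSO mean (log2 fold change -1.60, SE 0.08, edgeR adjusted p = 1.1e-09). Of its 3095 exon bases, 611 overlap genes of the other strand. TAF5L was lower as well (-0.81), and the sum of both fell to 48.9% of that with DMSO. TAF5L may share reads with its pseudogene TAF5LP1, so its count and ratios with it are uncertain. TBPL1, a relative of TBP with known roles in the male germline, had 42.5, 38.6 and 37.5 CPM with DMSO and 17.0, 20.2 and 18.9 CPM with AZD4573. It was lower in each AZD4573 library (log2 fold change -1.08, SE 0.07, edgeR adjusted p = 1.4e-08), while 2981 of its 5039 exon bases lie in other genes. TAF7L, a germline relative of TAF7, was below 0.5 CPM in every library and did not pass the test (-0.88, edgeR adjusted p = 0.089). Its value rested on single libraries, at -1.45 without AZD4573 replicate 3 (edgeR adjusted p = 0.020, past the test) and at -0.59 without AZD4573 replicate 1 (edgeR adjusted p = 0.25).

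Of the 4 TAF subunits of SL1, the TBP complex of RNA polymerase I, 3 were lower by at least 1.5-fold. TAF1A had 22.5, 20.5 and 20.6 CPM with DMSO and 4.52, 5.19 and 4.13 CPM with AZD4573. Every AZD4573 library lay below every DMSO library, and the mean was 21.8% of that with DMSO (log2 fold change -2.20, SE 0.09, edgeR adjusted p = 2.0e-10). TAF1A lies on chromosome 1 (222557902 to 222589933, minus strand, GRCh38), and shares 109 of its 2891 exon bases with its antisense gene. TAF1B (-1.04), whose product resembles TFIIB, and TAF1D (-0.62) were lower too. TAF1D hosts several small nucleolar RNAs, and 1319 of its 7970 exon bases lie in other genes. TAF1C did not pass the test (-0.06, edgeR adjusted p = 0.48), with 63.9 to 81.7 CPM with DMSO and 67.9 to 73.3 CPM with AZD4573, but it passed without DMSO replicate 1 (-0.16, edgeR adjusted p = 0.011).

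TFIIIB, the TBP-containing factor of RNA polymerase III, was lower in all 3 of its tested genes, and their sum fell from 182 ± 0.392 to 77.4 ± 2.90 CPM (SD, n = 3). BRF1, the TFIIB-related subunit used at tRNA genes, had 73.3, 74.8 and 71.3 CPM with DMSO and 23.9, 21.5 and 23.0 CPM with AZD4573. The 3 AZD4573 libraries were close together at 31.2% of the DMSO mean (log2 fold change -1.68, SE 0.05, edgeR adjusted p = 3.6e-11). Of its 12962 exon bases, 1052 overlap genes of the other strand. BDP1, which completes TFIIIB, had 94.5, 93.9 and 95.9 CPM with DMSO and 44.5, 42.1 and 39.3 CPM with AZD4573, lower throughout (-1.18). BRF2, which replaces BRF1 at a small class of promoters, was lower by less than 1.5-fold (-0.20, SE 0.07, edgeR adjusted p = 0.020), and 1629 of its 2717 exon bases overlap ADGRA2 on the other strand. BRF2 did not pass the test without DMSO replicate 3 (-0.18, edgeR adjusted p = 0.064), without AZD4573 replicate 2 (-0.18, edgeR adjusted p = 0.060) or with at least 10 counts required in every library (-0.16, edgeR adjusted p = 0.051).

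TFIIIC, which recruits TFIIIB to genes with internal promoters, and TFIIIA, needed at the smallest ribosomal RNA gene, were split. GTF3C5 had 78.0, 74.6 and 76.2 CPM with DMSO and 27.3, 24.4 and 24.4 CPM with AZD4573. All AZD4573 libraries were lower, at 33.3% of the DMSO mean (log2 fold change -1.59, SE 0.06, edgeR adjusted p = 6.3e-11), and no other annotated exon overlaps the gene. GTF3C2 (-0.98), GTF3C6 (-0.58) and GTF3C3 (-0.56) were lower as well, GTF3C2 by more than 1.5-fold. GTF3C1, the largest TFIIIC subunit, did not pass the test (-0.00), with 91.6 to 98.5 CPM with DMSO and 91.8 to 97.9 CPM with AZD4573. GTF3C4 (0.52) and GTF3A (0.49), which encodes TFIIIA, were higher by less than 1.5-fold by TMM and lower by mitochondrial scaling (-0.22 and -0.25). Of the 5702 exon bases of GTF3C2, 1475 overlap antisense genes, and GTF3C6 and GTF3A have pseudogenes, so the counts of these members are uncertain. The sum over the 7 genes overlapped between the groups, at 763 ± 23.8 CPM with DMSO and 799 ± 9.97 CPM with AZD4573 (SD, n = 3).

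The TFII-I family and TAF15 carry general factor names but have other functions, TFII-I as a signal-regulated DNA-binding factor and TAF15 as an RNA-binding protein of the FET family. GTF2I, which encodes TFII-I, was lower by less than 1.5-fold (-0.25), and GTF2IRD1 did not pass the test (-0.41, edgeR adjusted p = 0.11). GTF2IRD2 (0.46) and GTF2IRD2B (0.56) were higher by TMM and had values below 0 by mitochondrial scaling (-0.27 and -0.17, the latter not past the test). These genes have near-identical copies and pseudogenes on chromosome 7, so that their counts are uncertain. TAF15 had 513, 554 and 564 CPM with DMSO and 727, 760 and 732 CPM with AZD4573, higher in each library by TMM (0.44, under 1.5-fold) and lower by mitochondrial scaling (-0.29).

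The other 15 members did not pass the filter. TAF11L2 to TAF11L14, 13 copies of a TAF11 relative, had 0 counts in all 6 libraries, the highest count of TAF1L in any library was 8 and that of GTF2A1L was 1.

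A ratio of 2 genes within a library depends little on the scaling of the library unless a gene is low, where the pseudocount counts, and 11 of 13 pairs of related or partner genes had both genes past the filter. The log2 ratio of CPM plus 0.5 was compared over libraries by a two-sided exact permutation test, for which 3 against 3 libraries allow no p below 0.1. In 7 pairs the groups did not overlap, each with this smallest p (exact permutation p = 0.1, Benjamini-Hochberg adjusted over the 11 pairs 0.157), and in 4 they overlapped. Of single genes tested, 38.7% were separated downwards and 39.0% upwards, and the share over other pairs of genes was not computed.

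For TAF5 and its SAGA counterpart TAF5L, the log2 ratio was -1.68 ± 0.0955 with DMSO and -3.87 ± 0.397 with AZD4573 (SD, n = 3), a difference of -2.20 (SE 0.24), or -2.48 without a pseudocount and -1.65 with a pseudocount of 2. The TAF6 pair had the opposite sign, with a difference of 1.78 in TAF6/TAF6L (SE 0.14). The ratio BRF1/BRF2 differed by -1.47 (SE 0.07), and TBP/TBPL1 by 0.92 (SE 0.08). The ratio GTF2E1/GTF2E2 differed by 0.67 (SE 0.08), GTF2F1/GTF2F2 by 0.49 (SE 0.05) and TAF3/TAF8 by -0.34 (SE 0.05). TAF9/TAF9B differed by -0.02 (SE 0.03, exact permutation p = 0.4), TAF4/TAF4B by -0.20 (SE 0.08, exact permutation p = 0.2), TAF7/TAF7L by -0.20 (SE 0.17, exact permutation p = 0.3) and GTF2IRD1/GTF2I by -0.04 (SE 0.12, exact permutation p = 0.8), and in these 4 the groups overlapped. The sign of the last 2 depended on the pseudocount, since TAF7L and GTF2IRD1 were low. TAF7/TAF7L differed by 0.53 without a pseudocount and by -0.40 with a pseudocount of 2, and GTF2IRD1/GTF2I by -0.18 and 0.0997, so that neither has a settled direction.

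**Figure D4:**
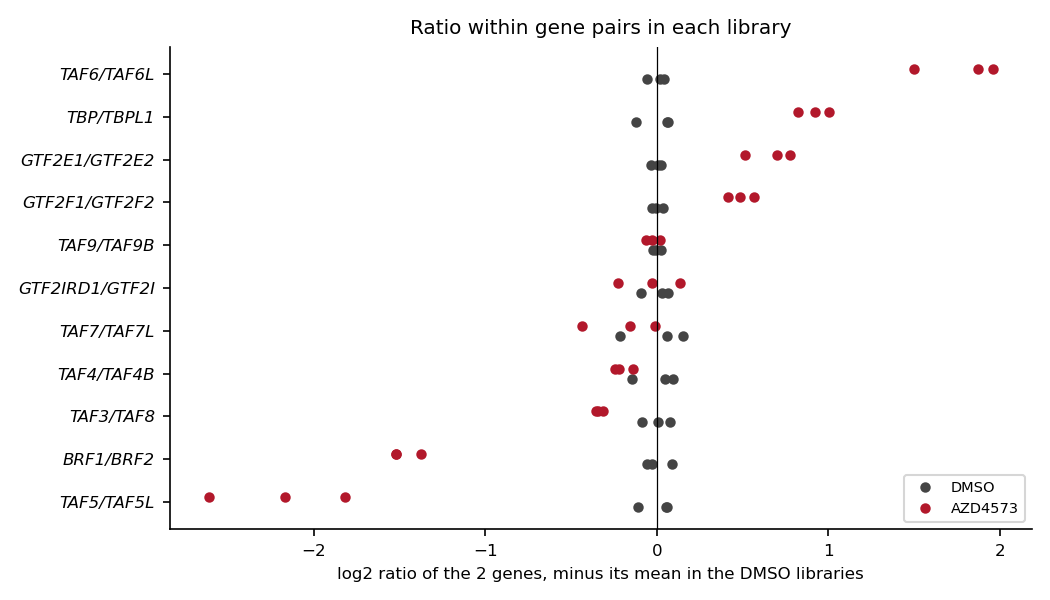
Log2 ratio of the 2 genes of each pair in every library, minus the mean of the DMSO libraries, with DMSO in grey and AZD4573 in red. The AZD4573 libraries stand apart from the DMSO libraries in 7 of the 11 pairs, at the far left in TAF5/TAF5L (difference -2.20) and at the far right in TAF6/TAF6L (1.78). Of single genes tested, 38.7% were separated downwards and 39.0% upwards.

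Of 20 genes that work with these factors but have other names, 8 were lower and 1 was higher by at least 1.5-fold (40.0% and 5.00%, beside 23.7% and 22.7% of all genes tested), 11 were lower and 3 higher at any fold (all genes, 37.4% and 37.3%), and 6 did not pass the test. Their median log2 fold change was -0.30. The largest fall was in SNAPC2, a subunit of the complex SNAPc that serves small nuclear RNA genes, with 15.7, 15.5 and 16.2 CPM with DMSO and 4.38, 3.44 and 3.77 CPM with AZD4573 (log2 fold change -2.04, SE 0.09, edgeR adjusted p = 5.0e-10). The largest rise was in another subunit of the complex, SNAPC5, with 12.2, 9.58 and 11.1 CPM with DMSO and 17.8, 19.7 and 18.6 CPM with AZD4573 (0.77 by TMM and 0.03 by mitochondrial scaling). Of the 5 TFIIH subunits with other names, 2 were lower by at least 1.5-fold, and both SL1 partners on the list were. The counts were 3 of 5 for SNAPc, 1 of 4 for SAGA core partners and 0 of 4 for regulators of TBP or RNA polymerase III.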

How the data were processed

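Per the study's methods and the submitters' processing notes, the authors trimmed reads with Cutadapt 2.3, aligned them to GRCh38 with STAR 2.7.8a and ran RSEM 1.3.3 with its default settings, which ignore strand, to obtain expected counts. The deposited expected counts are whole numbers without normalization. The labels give poly(A) RNA, the methods rRNA depletion. The labels and legends give 4 h, the discussion 6 h. Rows of 5 reporter sequences were left out.

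The whole table was fitted in R 4.3.3 with edgeR 4.0.16 (minimum count 10, TMM, quasi-likelihood test without a replicate block, Benjamini-Hochberg adjustment over 17678 genes). Calls needed a 1.5-fold change and an adjusted p under 0.05. The SE of a gene's log2 fold change was its absolute value divided by the square root of the test's F statistic. The procedure was tested on simulated data with 200 of 17678 genes changed, of which edgeR recovered 192, and it called 9 unchanged genes. Far fewer genes changed there than in the data, and equally in both directions, so the simulation could not check the scaling. Alternatives were DESeq2 1.42.0, other scalings, filters and fold thresholds, a replicate block and each library left out in turn. Another kept only members without an annotated exon overlap, copy or pseudogene, and read sharing itself was not measured. Gene positions and exons came from GENCODE release 44 and promoters from RefSeq.

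Library values were given for TBP, for the largest called fall and rise in each role group and for the 5 largest falls and rises over all members (TAF10 was the only rise called). The library values of BDP1, GTF2H3 and TAF15 and the ranges of TAF1C and GTF3C1 were added after their values were seen. BDP1 was kept as the rule names it, although its name ends like that of a pseudogene. The members and lists were chosen with earlier results of these data known. Within groups, no 2 libraries were alike within counting noise (ratio of chi-square to degrees of freedom 5.51 to 20.5). One of the B-cell markers is not reported here.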

Additional observations from a re-analysis of the deposited data

How the results depend on the processing

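The count of members lower by at least 1.5-fold (22) was 43 with mitochondrial scaling, beside 53.4% of all genes tested. It was 14 at a fold change of at least 2, for which the share of all genes was not computed. Among the 16 members without an annotated exon overlap, copy or pseudogene it was 8. With each library left out in turn it ranged from 21 to 25. The count higher by 1.5-fold (1, TAF10) was 3 with at least 10 counts required in every library. It was 0 with library size only, mitochondrial scaling, no filter, a fold change of at least 2 or members without such annotated sharing. It was also 0 among members with at most 10% of exon bases in another gene, a rule chosen after seeing the data. Over protein-coding members only, also chosen after seeing the data, 21 were lower and 1 higher, with a median of -0.50. The higher count ranged from 0 to 2 with a library left out (2 without DMSO replicate 1 or AZD4573 replicate 2, 0 without AZD4573 replicate 3). At any fold, 12 members were lower and 0 higher among those without such annotated sharing. With mitochondrial scaling 0 were higher, and leaving out a library gave 35 to 37 lower and 10 to 11 higher. The median of -0.53 became -0.63 with library size only, -1.27 with mitochondrial scaling and -0.77 among members without such annotated sharing. With a library left out it was -0.56 to -0.51. The cause of these shifts was not tested, except that stricter rules test or call fewer genes by construction.

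Single members turned direction in 21 cases. With mitochondrial scaling these were GTF2F1 (-0.72), GTF2H5 (-0.63), TAF6 (-0.52), TAF9 (-0.44), TAF9B (-0.42), TAF15 (-0.29), GTF2IRD2 (-0.27), GTF3A (-0.25), GTF3C4 (-0.22), GTF2H3 (-0.18), GTF2IRD2B (-0.17) and TAF10 (-0.14). The others were GTF3C1 (0.0014 with RLE factors, 0.0013 with DESeq2, 0.034 with at least 10 counts everywhere, 0.022 without DMSO replicate 3 and 0.018 without AZD4573 replicate 3), GTF2F1 (-0.084 with library size only, -0.021 without a filter, -0.0056 without AZD4573 replicate 2) and TAF1C (0.012 without DMSO replicate 3), none past the test by TMM. With a library left out, the ranges were -0.031 to 0.022 for GTF3C1, -0.0056 to 0.043 for GTF2F1 and -0.16 to 0.012 for TAF1C. The ratio TAF7/TAF7L turned to 0.527 without a pseudocount, an alternative chosen after seeing the data. The ratio GTF2IRD1/GTF2I turned to 0.0997 with a pseudocount of 2 and to 0.0546 without AZD4573 replicate 3 (-0.128 to 0.0546 with a library left out). Over all alternatives, 650 values of single members kept their direction and their side of an adjusted p of 0.05, whatever the fold. In 9 the adjusted p came under 0.05 (TAF7L, GTF2IRD1, TAF1C, GTF2H4, GTF3C1 or GTF2H5), and in 8 it no longer did (BRF2, GTF2E1, TBP or TAF6). Deviations from the group mean were little correlated between libraries with the same replicate number (r = -0.0072, 0.071 and -0.02). With 3 libraries per group this cannot settle whether the numbers pair them. A replicate block gave 22 lower and 1 higher, or 36 and 10 at any fold. GTF2H2B, GTF2IRD1 and TAF7L, which were below 4 CPM in every library, had the widest standard errors.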

Other observations

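Some rows left out by name went another way than the member they resemble. TAF5LP1, a processed pseudogene of TAF5L on chromosome 17, had 3.45, 3.94 and 3.81 CPM with DMSO and 12.2, 15.1 and 14.9 CPM with AZD4573, higher in every library (log2 fold change 1.91, SE 0.10, edgeR adjusted p = 2.0e-09, and 1.17 by mitochondrial scaling), while TAF5L was lower (-0.81). Reads can be split between a gene and such a copy, so both counts are uncertain, and the share was not tested. TAF1A-AS1, the antisense gene of TAF1A, was higher by less than 1.5-fold (0.54 by TMM and -0.20 by mitochondrial scaling), where TAF1A was lower (-2.20).

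Across genes, which are not independent, longer genes tended to lower log2 fold changes: Spearman's rho with the gene span was -0.27 over the 53 tested members and -0.10 over 17638 genes. With the DMSO level per kb of exon rho was 0.23 over the members and -0.33 over all genes. The DMSO counts enter both this level and the fold change, so part of a negative rho can arise by construction. The members' median span was 35031 bases, against 23235 bases for all genes. The points share libraries and depth.

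Among the partner genes, CDK7, the kinase of TFIIH, had 23.3, 22.6 and 20.8 CPM with DMSO and 7.42, 5.87 and 5.99 CPM with AZD4573 (log2 fold change -1.79, SE 0.09, edgeR adjusted p = 1.2e-09). Its cyclin CCNH (-1.01) and a further TFIIH subunit of the list, MNAT1 (-0.35, under 1.5-fold), were lower as well. Of the 5981 exon bases of CCNH, 1267 overlap genes of the other strand. The helicase genes ERCC3 (-0.06, not past the test) and ERCC2 (0.25 by TMM, -0.49 by mitochondrial scaling) were not lower by TMM. These values were picked after they were seen.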
